A study of Mus musculus with 12 samples.

Results

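Translation initiation factor genes were taken as every row of the deposited expression table whose Entrez ID maps to a mouse gene symbol that begins with Eif and a digit from 1 to 6. This rule found 50 genes among the 9842 listed. The reference gene table holds 56 protein-coding genes with such symbols, and the 6 without a row (Eif5a2, Eif4a3l1, Eif4e1b, Eif4ebp3, Eif3j2 and Eif2s3y) have no value here. The table lists only genes that reached 1 FPKM in at least 3 libraries, where FPKM are fragments counted per length of the gene and per size of the library.

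RNA was sequenced from splenic B cells of female C57BL/6J mice, either with LSD1 (wild type) or without it (knockout). LSD1 is the histone demethylase encoded by Kdm1a. Transitional B cells (TrB), the recent bone marrow emigrants of the spleen, were enriched magnetically and sorted directly, unstimulated, by B220 and CD93. The marginal zone B cells (eMZB) were derived in a 3 days long culture from such transitional cells, given BAFF, a B cell survival factor, and DL1, a ligand of Notch receptors, and sorting used B220, CD21 and CD1d. Both sorts left out cells with Thy1.1, F4/80 or CD11b. There were thus 4 groups, TrB_WT, TrB_KO, eMZB_WT and eMZB_KO, each of 3 libraries made from 2000 cells. On the deleted allele, any Cre driver and the age of the mice the sources used here give nothing. Nothing states that libraries of a group came from different animals, so p-values reflect only how much these libraries vary, and that variation may be technical. The eMZB cells differ from the TrB cells both in identity and in 3 days of culture, and the effects of these cannot be told apart.

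Initiation is the step at which a ribosome is placed on the start codon of a messenger RNA. The factor eIF2 carries the initiator tRNA to the small ribosomal subunit together with eIF1, eIF1A, eIF3 and eIF5, while eIF4F binds the cap of the messenger RNA and recruits that complex. Resting B lymphocytes make little protein and are known to raise translation when activated, with eIF2 kinases and the 4E-binding proteins as the main brakes.

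Levels are given as scaled FPKM, the deposited values divided by 1 median-of-ratios factor per library (0.613 to 2.14). They stand as mean ± SD with n = 3 libraries per group, or library by library in the order of replicates 1, 2 and 3. Libraries held 7.24 to 19.35 Mreads (megareads), and 1.96 to 8.78 Mreads were in listed genes. The share of reads in listed genes was 16.7 to 20.1% in wild-type and 17.2 to 61.6% in knockout TrB cells, and 27.8 to 35.3% and 29.0 to 41.7% in the corresponding eMZB cells. TrB_KO replicate 3 stood apart with the share of 61.6% and 285 listed genes at 0. In scaled FPKM, Kdm1a ranged over 2.56 to 3.35 in knockout and 3.47 to 8.54 in wild-type TrB cells, and over 2.53 to 2.66 and 4.68 to 8.63 in eMZB cells. The lowest wild-type values came from the libraries labelled TrB_WT replicate 3 and eMZB_WT replicate 3, and the Kdm1a difference did not pass the test in either cell type (limma adjusted p = 0.249 and 0.148). All 9 B cell markers looked for were listed, and the sorting markers differed in the direction of the labels for CD93 (Cd93, 5.002 ± 0.780 in TrB_WT and 0.873 ± 0.203 in eMZB_WT) and CD21 (Cr2, 8.77 ± 1.14 and 65.5 ± 4.90), while Cd1d1 measured 22.3 ± 2.52 and 22.8 ± 0.241.

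Messenger RNAs of initiation factors were higher in eMZB than in TrB cells, for 18 of 50 genes in wild type and 21 of 50 in knockout cells. No initiation factor gene fell in wild type, and Eif2ak3 and Eif1ad fell in knockout cells. A gene was called when its Benjamini-Hochberg adjusted p in limma, taken over all 9842 genes, was under 0.05. Among all genes, 14.6% were called higher and 12.7% lower in eMZB_WT than in TrB_WT, and 14.2% higher and 13.2% lower in eMZB_KO than in TrB_KO. The initiation factors thus stood at 36% higher and 0% lower in wild type and at 42% higher and 4% lower in knockout cells. Their median log2 change was 0.15 in wild type and 0.25 in knockout cells, against -0.00162 and -0.00846 over all genes. Log2 changes are on the scale of log2(scaled FPKM + 1), which understates the change of genes with low values.

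**Figure D1:**
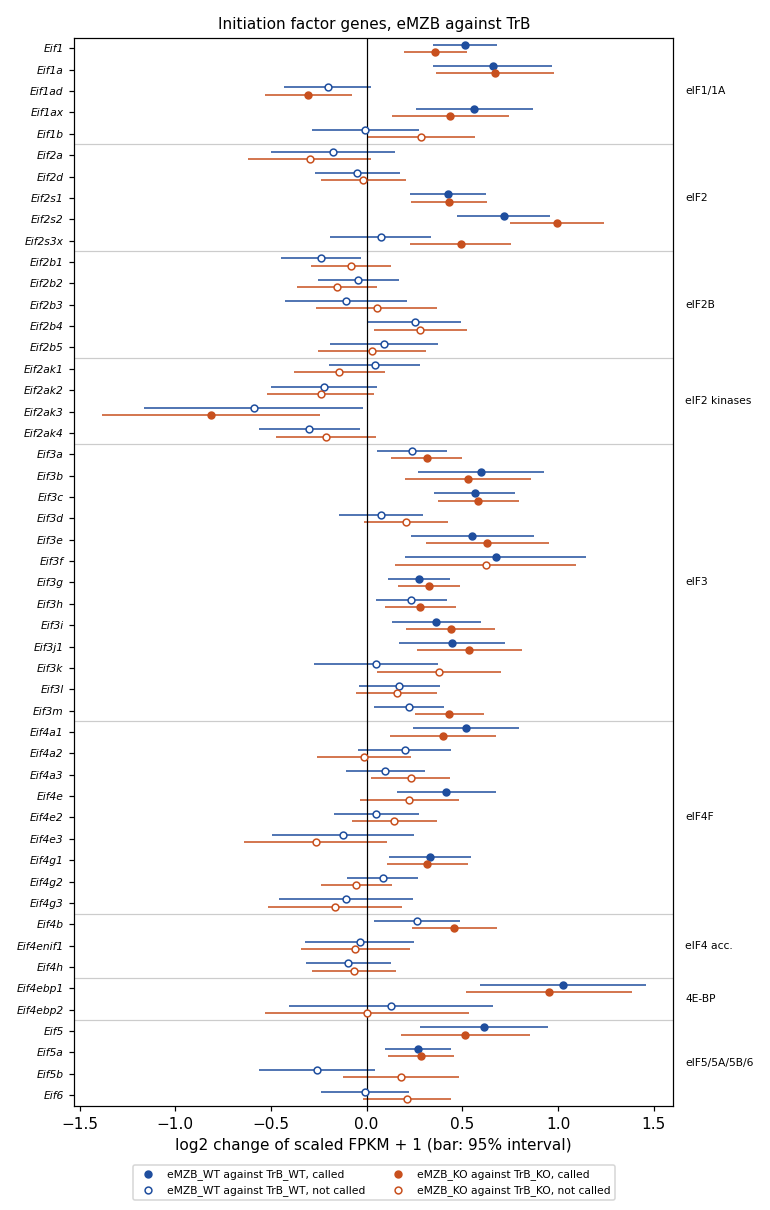
Log2 change of scaled FPKM + 1 from TrB to eMZB cells (x axis) for each of the 50 genes (y axis, grouped by role), with 95% intervals; blue is wild type, orange is knockout, filled points are called. Most filled points lie right of 0, Eif4ebp1 and Eif2s2 reach farthest, eIF2B has none, and Eif2ak3 at -0.81 in knockout cells lies farthest left.

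The scaled FPKM of the 50 genes summed to 806 to 826 in wild-type and 838 to 860.2 in knockout TrB cells, and to 978 to 1007 and 1005 to 1056 in the corresponding eMZB cells. Each eMZB library was therefore above each TrB library in this sum. As a share of the reads in listed genes, the members took 0.818 to 0.830% in TrB_WT and 0.953 to 0.986% in eMZB_WT, and 0.842 to 0.851% in TrB_KO and 0.9995 to 1.04% in eMZB_KO. In such bulk libraries, fewer cells of a type and less RNA per cell cannot be told apart, and the scaling leaves the amount of RNA per cell unmeasured. The share of reads in listed genes was itself higher in eMZB_WT than in TrB_WT, the summed B cell markers were lower (1375 to 1498 against 2209.8 to 2558 scaled FPKM) and the summed plasma cell markers were higher (174 to 176 against 96.3 to 123). In knockout cells the B cell marker sums were lower too (1280.1 to 1326 in eMZB_KO against 1994 to 2267 in TrB_KO), while the plasma cell sums (146 to 164 against 122 to 167) and the shares of reads in listed genes overlapped. The part of these shifts in the initiation factor result was not tested.

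Of the genes that rose, 16 did so in both genotypes, which is 88.9% of the wild-type and 76.2% of the knockout list. Over all listed genes the corresponding shares were 69.1% and 71.2%. Eif4e and Eif3f were called in wild type alone, and Eif3a, Eif2s3x, Eif3h, Eif4b and Eif3m in knockout cells alone, yet none of these 7 passed the test of the difference between the genotypes, the interaction given at the end. Both comparisons gave the same sign for 43 genes (86%, against 79.7% of all genes), positive in 31 (62%, against 39.3%). The libraries of the groups did not overlap for 22 genes that were higher and 6 that were lower in eMZB_WT than in TrB_WT, or 44% and 12% of the members, against 21.8% and 23.3% of all genes. In knockout cells the corresponding counts were 27 and 3, against 22.7% and 21.2% of all genes.

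Single libraries moved these counts. Leaving out each of the 12 libraries in turn gave 13 to 23 members called in the wild-type and 14 to 27 in the knockout comparison. The lowest knockout counts, 15 and 14, came without eMZB_KO replicate 1 and without eMZB_KO replicate 3. Of the 18 genes called in wild type, 10 were called in all 12 such fits (Eif1, Eif1a, Eif1ax, Eif2s1, Eif2s2, Eif3b, Eif3c, Eif4a1, Eif4ebp1 and Eif5), and of the 23 called in knockout cells 13 were (Eif1, Eif1a, Eif2s1, Eif2s2, Eif2s3x, Eif3c, Eif3e, Eif3g, Eif3i, Eif3j1, Eif3m, Eif4b and Eif4ebp1). Without the 2 wild-type libraries of low Kdm1a, 16 members were called in the wild-type comparison, 14 of them shared with the 18. Scaling to the upper quartile turned the wild-type split of 18 higher and 0 lower into 16 higher and 2 lower, with Eif2ak4 and Eif2b1 as the added falls. On FPKM as deposited, without a scaling factor, 15 members were called in wild type and 1, Eif2s2, in knockout cells, all of them higher. The replicate block changed the calls of 2 genes in knockout cells: Eif1ad was no longer called and Eif3f was, which gave 22 higher and 1 lower. Fitted alone with the block, the 6 knockout libraries gave 20 calls, without Eif1ad, Eif3a, Eif3h and Eif5a and with Eif3f.

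The genes that act first, on the small subunit, included some of the steadiest rises. Eif1, which keeps the scanning ribosome from stopping at wrong start codons, had the highest level of all 50 genes. Its scaled FPKM were 83.3, 93.7 and 84.7 in TrB_WT, 92.8, 96.5 and 85.4 in TrB_KO, 131, 124 and 119.6 in eMZB_WT, and 122, 118 and 113 in eMZB_KO. Every eMZB library was above every TrB library, with a log2 change of 0.51 (SE 0.08, adjusted p = 0.000363) in wild type and 0.36 (SE 0.08, adjusted p = 0.00403) in knockout cells by limma. The gene lies at chromosome 11, 100319949 to 100322099 (mm10, RefSeq annotation, here and for the genes that follow). Eif1a, 1 of 2 listed genes for eIF1A, which helps the ribosome scan and accept the start codon, measured 5.40, 5.06 and 8.09 in TrB_WT, 6.23, 6.66 and 6.73 in TrB_KO, 8.89, 10.9 and 10.8 in eMZB_WT, and 10.1, 10.99 and 12.05 in eMZB_KO. These groups did not overlap between cell types either, and TrB_WT replicate 3 was the highest TrB library. The log2 change of Eif1a was 0.66 (SE 0.14, adjusted p = 0.00464) in wild type and 0.67 (SE 0.14, adjusted p = 0.00401) in knockout cells. Eif1ax, its near-identical copy on the X chromosome, went from 10.9 ± 2.65 to 16.3 ± 0.748 in wild type and rose by 0.56 there and by 0.44 in knockout cells on the log2 scale. The knockout call of Eif1ax held in 6 of 12 fits that left out a library. Because the copies are so alike, the split of reads between Eif1a and Eif1ax is uncertain.

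The remaining pair of this role was not called higher in either comparison. Eif1b, a close relative of Eif1, measured 15.2 ± 2.96 in TrB_WT and 15.0 ± 1.64 in eMZB_WT, and its wild-type change missed the threshold (limma adjusted p = 0.975). In knockout cells it went from 14.9 ± 0.762 to 18.4 ± 1.52. These groups did not overlap, but the log2 change of 0.29 missed the threshold too (limma adjusted p = 0.128). Eif1ad, named for an eIF1A domain, fell in knockout cells, where its values were 10.3, 8.01 and 10.5 in TrB_KO and 8.01, 7.75 and 6.82 in eMZB_KO. Its log2 change was -0.30 (SE 0.10, adjusted p = 0.0472), and the highest eMZB_KO library lay just under the lowest TrB_KO library. That call held in 2 of 12 fits that each left out a library, and 15.3% of the exon bases of Eif1ad are shared with Banf1 on the opposite strand. In wild type Eif1ad measured 9.90 ± 0.480 and 8.47 ± 0.316 (limma adjusted p = 0.171). The library kit does not mark strand, so reads from such overlaps cannot be assigned.

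Among the genes of eIF2 and its stand-ins, 2 of 5 rose in wild type and 3 of 5 in knockout cells, with the largest change for Eif2s2, the beta subunit. Eif2s2 (chromosome 2, 154871410 to 154892906) measured 2.001, 2.63 and 2.76 in TrB_WT, 2.26, 2.36 and 2.47 in TrB_KO, 4.81, 4.46 and 4.73 in eMZB_WT, and 5.41, 5.28 and 6.49 in eMZB_KO scaled FPKM. The lowest eMZB library was well above the highest TrB library. Its log2 change was 0.72 (SE 0.11, adjusted p = 0.000539) in wild type and 0.995 (SE 0.11, adjusted p = 4.1e-05) in knockout cells by limma. Eif2s1, the alpha subunit that the eIF2 kinases phosphorylate, was far more abundant per length and rose less, from 10.4 ± 1.12 to 14.3 ± 0.456 in wild type (log2 0.43) and from 11.3 ± 0.796 to 15.6 ± 0.664 in knockout cells (log2 0.43). The gamma subunit gene Eif2s3x, at chromosome X, 94188709 to 94212651, measured 7.37, 7.16 and 9.74 in TrB_WT, 7.39, 6.57 and 6.30 in TrB_KO, 7.33, 8.83 and 9.45 in eMZB_WT, and 10.2, 9.58 and 9.87 in eMZB_KO. Its wild-type groups overlapped and its knockout groups did not, with log2 changes of 0.07 (SE 0.12, adjusted p = 0.685) and 0.49 (SE 0.12, adjusted p = 0.00941). Its Y-linked copy Eif2s3y has no row, and all mice were female.

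Eif2a and Eif2d, which can bring initiator tRNA to the ribosome in place of eIF2, were called in neither cell type comparison. Eif2a measured 3.45 ± 0.268 and 2.93 ± 0.267 in wild type, and Eif2d 3.97 ± 0.441 and 3.80 ± 0.347. None of the 5 subunits of eIF2B, the exchange factor that reloads eIF2 with GTP, was called in either comparison. Group means in wild type went from 8.36 ± 1.20 to 6.90 ± 0.143 for Eif2b1, 10.1 ± 1.14 to 9.77 ± 0.609 for Eif2b2, 2.31 ± 0.360 to 2.06 ± 0.219 for Eif2b3, 6.05 ± 0.832 to 7.37 ± 0.734 for Eif2b4 and 9.65 ± 2.01 to 10.2 ± 0.768 for the catalytic subunit gene Eif2b5. The smallest limma adjusted p of the 5 was 0.0875 in wild type (Eif2b1, lower) and 0.0822 in knockout cells (Eif2b4, higher). Among all genes 14.6% were called higher and 12.7% lower in wild type, and 14.2% and 13.2% in knockout cells. For 5 genes, 0 calls lie near those shares. At an unadjusted limma p under 0.05, 2 of the 5 passed in wild type, Eif2b4 (higher) and Eif2b1 (lower). Of the 3 subunit genes of eIF2 itself 2 rose in wild type, and a difference between the roles was not tested.

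The 4 eIF2 kinases sense different stresses and halt initiation by phosphorylating eIF2 alpha. None of these 4 genes was called higher in eMZB cells in either genotype. Among all genes 14.6% were called higher in wild type and 14.2% in knockout cells, so 0 of 4 lies near those shares. Eif2ak3, or PERK, the kinase of endoplasmic reticulum stress (chromosome 6, 70844484 to 70905241), measured 12.6, 14.6 and 5.56 in TrB_WT, 13.7, 10.6 and 16.4 in TrB_KO, 7.13, 7.07 and 5.21 in eMZB_WT, and 6.61, 7.51 and 7.43 in eMZB_KO. TrB_WT replicate 3 was the exception among the TrB libraries, at a level within the eMZB range, and in knockout cells the groups did not overlap. The log2 difference of Eif2ak3 was -0.59 (SE 0.26, adjusted p = 0.115) in wild type and -0.81 (SE 0.26, adjusted p = 0.0363) in knockout cells by limma. Without TrB_WT replicate 3, 1 of the 2 wild-type libraries of low Kdm1a, the wild-type change became -0.97 (adjusted p = 0.00129), so this library decided the call. In knockout cells the call held in 7 of 12 fits that left out a library and was lost without each of the 3 eMZB_KO libraries and without TrB_KO replicate 1 or 3.

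Eif2ak1, or HRI, known for sensing heme, measured 11.7, 12.2 and 13.6 in TrB_WT, 11.4, 12.9 and 13.9 in TrB_KO, 14.1, 10.8 and 14.02 in eMZB_WT, and 11.6, 11.1 and 11.5 in eMZB_KO. The groups overlapped throughout, with a limma adjusted p of 0.802 in wild type and 0.379 in knockout cells. Eif2ak2, or PKR, which binds double-stranded RNA, measured 3.91, 4.56 and 5.19 in TrB_WT, 4.12, 4.52 and 5.86 in TrB_KO, 3.76, 3.80 and 3.64 in eMZB_WT, and 4.13, 4.17 and 3.42 in eMZB_KO. Its eMZB_WT libraries were all below the TrB_WT libraries, but the change of -0.22 (SE 0.13, adjusted p = 0.216) did not pass the test. The same held for Eif2ak4, or GCN2, which senses amino acid shortage, at 4.20, 3.11 and 3.39 in TrB_WT, 2.84, 3.38 and 3.59 in TrB_KO, 2.64, 2.44 and 3.02 in eMZB_WT, and 2.92, 2.52 and 2.59 in eMZB_KO. Its wild-type groups did not overlap, and its log2 change of -0.30 (SE 0.12, adjusted p = 0.0869) missed the threshold. Exons of Eif2ak1 share 8.6% of their bases with Aimp2 on the opposite strand and those of Eif2ak3 8.0% with Gm43292.

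**Figure D2:**
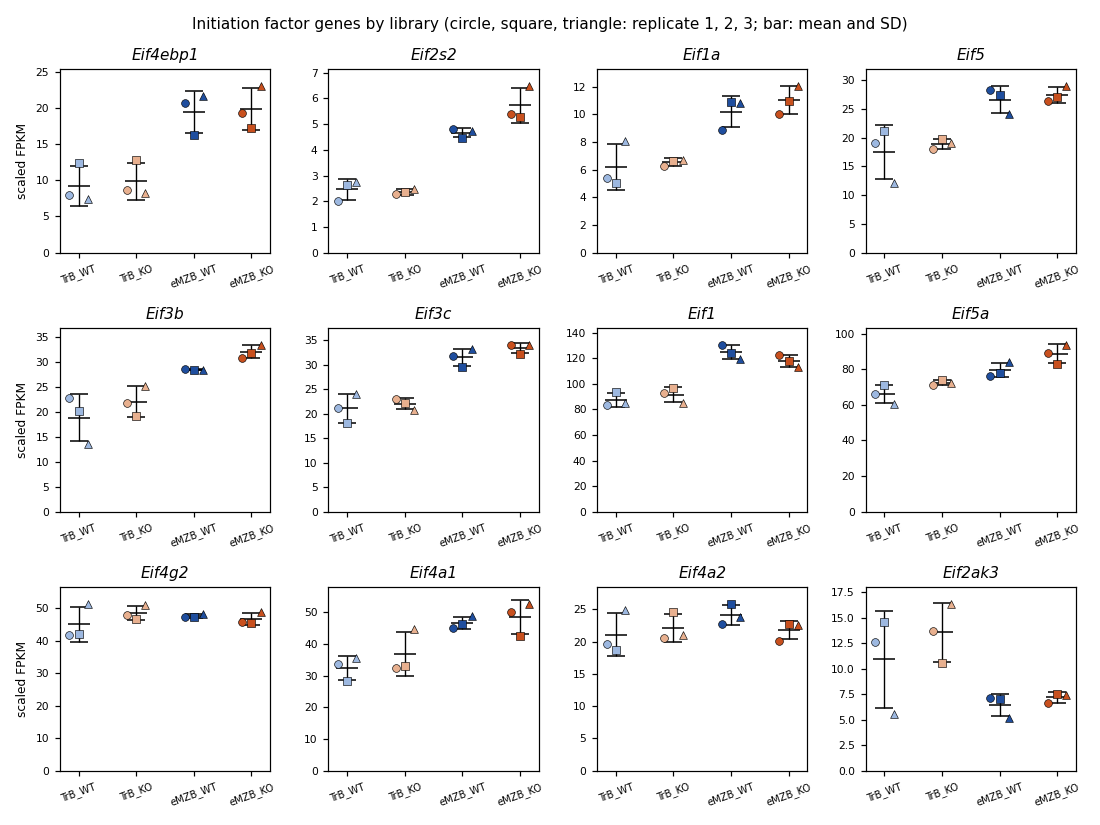
Scaled FPKM (y axis, linear from 0) of 12 initiation factor genes in each library of the 4 groups (x axis), with the mean and SD of each group. All eMZB libraries lie above all TrB libraries for the first 8 genes, the cell types overlap for Eif4g2, Eif4a1 and Eif4a2, and the lowest TrB library for Eif2ak3 is TrB_WT replicate 3 at 5.56.

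The large scaffold eIF3, which binds the small subunit and bridges it to eIF4F, was the largest group. Of its 13 listed subunit genes, 7 rose in wild type and 9 in knockout cells, and all 13 had a positive log2 change in both comparisons. Eif3b, a core subunit (chromosome 5, 140419305 to 140443358), measured 22.7, 20.2 and 13.6 in TrB_WT, 21.9, 19.1 and 25.2 in TrB_KO, 28.5, 28.4 and 28.3 in eMZB_WT, and 30.9, 31.9 and 33.4 in eMZB_KO. All eMZB libraries lay above all TrB libraries, and the 3 eMZB_WT libraries were nearly equal. Its log2 change was 0.60 (SE 0.15, adjusted p = 0.011) in wild type and 0.53 (SE 0.15, adjusted p = 0.0208) in knockout cells. Eif3c, another core subunit, rose from 21.1 ± 2.97 to 31.5 ± 1.82 in wild type and from 22.0 ± 1.13 to 33.4 ± 1.04 in knockout cells, with the smallest adjusted p of the subunits in wild type (limma, 0.00105). Eif3f (chromosome 7, 108934415 to 108941942), a subunit with an MPN domain, measured 24.4, 25.2 and 12.2 in TrB_WT, 21.4, 23.3 and 16.9 in TrB_KO, 31.5, 37.3 and 27.8 in eMZB_WT, and 32.0, 31.4 and 32.3 in eMZB_KO. The groups did not overlap, but TrB_WT replicate 3 stood at 12.2 beside 24.4 and 25.2. The log2 change of Eif3f was 0.67 (SE 0.22, adjusted p = 0.0371) in wild type, and the call was lost in 6 of 12 fits that left out a library, that library among them. In knockout cells the change was 0.62 (SE 0.22, adjusted p = 0.0521).

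Other subunits of eIF3 rose too. In wild type, Eif3e rose from 19.8 ± 4.99 to 29.0 ± 2.89, Eif3g from 29.5 ± 2.06 to 35.8 ± 1.35, Eif3i from 7.34 ± 0.839 to 9.69 ± 0.206 and Eif3j1 from 3.19 ± 0.361 to 4.70 ± 0.428, with log2 changes of 0.27 to 0.55. In knockout cells Eif3e had the largest change of the subunits, 0.63 (SE 0.15, adjusted p = 0.00717) by limma, and Eif3j1 rose by 0.54. Eif3a, the largest core subunit, Eif3h and Eif3m rose in knockout cells (log2 0.31, 0.28 and 0.43), of which the calls of Eif3a and Eif3h were lost when the 6 knockout libraries were fitted alone with the replicate block. Wild-type means of these were 13.5 ± 1.16 and 16 ± 0.409 for Eif3a, 32.5 ± 3.11 and 38.3 ± 2.65 for Eif3h, and 28.5 ± 0.838 and 33.5 ± 2.30 for Eif3m, with adjusted p of 0.057 to 0.0674. Eif3d, Eif3k and Eif3l were called in neither comparison and measured 23.1 ± 2.55, 14.9 ± 4.05 and 16.9 ± 1.55 in TrB_WT and 24.3 ± 1.01, 15.2 ± 0.483 and 19.1 ± 0.921 in eMZB_WT. Antisense gene Gm17638 covers 43.3% of the exon bases of Eif3d, Spg11 covers 19.0% of those of Eif3j1, and Eif3j1 has a near-identical copy, Eif3j2, without a row.

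Within eIF4F, which joins the cap-binding protein, a scaffold and an RNA helicase, 1 gene of each kind rose in wild type. Eif4a1, the main helicase (chromosome 11, 69666936 to 69672423), measured 33.7, 28.3 and 35.5 in TrB_WT, 32.6, 33.1 and 44.8 in TrB_KO, 45.1, 46.4 and 48.8 in eMZB_WT, and 50.2, 42.7 and 52.7 in eMZB_KO. Its wild-type groups did not overlap, while in knockout cells eMZB_KO replicate 2 was below TrB_KO replicate 3. Eif4a1 rose by 0.52 (SE 0.13, adjusted p = 0.00993) in wild type and 0.40 (SE 0.13, adjusted p = 0.0359) in knockout cells. The knockout call of Eif4a1 held in 8 of 12 fits that left out a library. Its paralog Eif4a2 (chromosome 16, 23107468 to 23114132) measured 19.6, 18.6 and 24.8 in TrB_WT, 20.6, 24.6 and 21.03 in TrB_KO, 22.7, 25.8 and 23.8 in eMZB_WT, and 20.1, 22.7 and 22.6 in eMZB_KO. These groups overlapped in both genotypes, with an adjusted p of 0.208 and 0.945 by limma. Introns of both genes hold small nucleolar RNA genes, some of which overlap annotated exons. Eif4a3, a helicase known from the exon junction complex, went from 35.0 ± 4.06 to 37.4 ± 2.42 without passing the test.

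The cap-binding gene Eif4e rose in wild type, from 8.56 ± 1.29 to 11.7 ± 0.449 (log2 0.42), and had a log2 change of 0.22 (SE 0.12, adjusted p = 0.196) in knockout cells. Its relatives Eif4e2, known as a cap-binding repressor, and Eif4e3 measured 4.83 ± 0.589 and 2.40 ± 0.597 in TrB_WT and 5.03 ± 0.396 and 2.11 ± 0.494 in eMZB_WT, and neither was called. Scaffold gene Eif4g1 rose from 17.2 ± 1.42 to 21.8 ± 1.25 in wild type and from 19.0 ± 2.14 to 23.8 ± 1.56 in knockout cells. Eif4g2, a scaffold that lacks the site for eIF4E (chromosome 7, 111067985 to 111083030), had the third highest level of the 50 genes, at 41.9, 42.1 and 51.3 in TrB_WT, 47.8, 46.8 and 51.1 in TrB_KO, 47.3, 47.4 and 48.4 in eMZB_WT, and 45.8, 45.3 and 48.9 in eMZB_KO. The 4 groups of Eif4g2 overlapped, and its log2 change was 0.08 (SE 0.09, adjusted p = 0.494) in wild type and -0.06 (SE 0.09, adjusted p = 0.68) in knockout cells. Eif4g3, a further scaffold, measured 6.74 ± 1.83 and 6.04 ± 0.215 in wild type and was not called.

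Of the accessory factors, Eif4b, which stimulates the helicase, rose in knockout cells from 14.7 ± 1.66 to 20.5 ± 1.28 (log2 0.46) and measured 15.4 ± 1.18 and 18.7 ± 1.86 in wild type (limma adjusted p = 0.0751). Eif4h, with a similar role, and Eif4enif1, a shuttling protein that binds eIF4E, were called in neither comparison, at 29.9 ± 3.96 and 7.47 ± 1.29 in TrB_WT and 27.8 ± 1.49 and 7.24 ± 1.09 in eMZB_WT.

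The largest change of any initiation gene in wild type was that of a repressor. Eif4ebp1 (chromosome 8, 27260327 to 27275656) encodes 4E-BP1, which binds eIF4E and blocks eIF4F until the kinase complex mTORC1 phosphorylates it. It measured 7.93, 12.4 and 7.35 in TrB_WT, 8.61, 12.8 and 8.24 in TrB_KO, 20.7, 16.2 and 21.7 in eMZB_WT, and 19.3, 17.2 and 23.1 in eMZB_KO scaled FPKM. Every eMZB library lay above every TrB library, and replicate 2 was the highest TrB and the lowest eMZB library in both genotypes. Eif4ebp1 rose on the log2 scale by 1.03 (SE 0.20, adjusted p = 0.00234) in wild type and 0.95 (SE 0.20, adjusted p = 0.00366) in knockout cells by limma. Eif4ebp2, with the same known function (chromosome 10, 61428491 to 61452790), measured 10.1, 10.7 and 4.66 in TrB_WT, 7.90, 6.79 and 11.3 in TrB_KO, 9.11, 8.45 and 9.11 in eMZB_WT, and 7.58, 10.3 and 7.79 in eMZB_KO. TrB_WT replicate 3 was lowest and TrB_KO replicate 3 highest, the groups overlapped, and the log2 change in wild type was 0.13 (SE 0.25, adjusted p = 0.728). Eif4ebp3 has no row.

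Of 4 listed factors of subunit joining and later steps, 2 rose in both comparisons. Eif5, which makes eIF2 hydrolyse its GTP at the start codon (chromosome 12, 111538101 to 111546753), measured 19.0, 21.2 and 12.1 in TrB_WT, 17.9, 19.7 and 19.0 in TrB_KO, 28.3, 27.5 and 24.03 in eMZB_WT, and 26.3, 27.0 and 29.0 in eMZB_KO. No eMZB library fell into the TrB range, and TrB_WT replicate 3 was the lowest of all. Eif5 rose by 0.61 (SE 0.15, adjusted p = 0.011) in wild type and 0.52 (SE 0.15, adjusted p = 0.0263) in knockout cells. Eif5a, whose hypusine-bearing protein is known to help elongation past difficult peptides (chromosome 11, 69916712 to 69921958), had the second highest level, at 66.3, 71.2 and 60.6 in TrB_WT, 71.3, 74.2 and 72.1 in TrB_KO, 76.5, 78.1 and 84.1 in eMZB_WT, and 89.4, 82.9 and 93.7 in eMZB_KO. Its cell type groups did not overlap, and the log2 change was 0.27 (SE 0.08, adjusted p = 0.0249) and 0.28 (SE 0.08, adjusted p = 0.0177). In wild type that call held in 8 of 12 fits that left out a library. Eif5b, the GTPase that joins the large subunit, and Eif6, which keeps the subunits apart, were called in neither comparison. Eif5b measured 3.60 ± 0.176 and 2.84 ± 0.176 in wild type and Eif6 11.6 ± 1.83 and 11.5 ± 0.616.

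Promoter sequences are shown for called genes whose promoter held CACGTG, the E-box that MYC and related factors are known to bind. Myc itself rose, from 5.72 ± 0.514 to 16.5 ± 1.15 in wild type (log2 1.38 (SE 0.10, adjusted p = 1.06e-06)), and its part in the rises of these genes was not tested. RefSeq promoter sequences, 250 bases before to 50 after a gene start (GRCm38.p6), were found for 41 of the 50 genes, all but Eif1a, Eif2b3, Eif3e, Eif3h, Eif3i, Eif4e3, Eif4ebp1, Eif4g2 and Eif6. CACGTG, which reads alike on both strands, stood in 9 of 41 (22.0%), against 960 of 7831 listed genes (12.3%). Among genes with a promoter sequence that rose in either comparison it stood in 6 of 18, and among the others in 3 of 23. The 100-base windows below lie upstream of a RefSeq start, touch no annotated exon, run 5′ to 3′ on the strand of the gene and have the motif in capitals.
Eif3f chr7:108934300-108934399, plus strand: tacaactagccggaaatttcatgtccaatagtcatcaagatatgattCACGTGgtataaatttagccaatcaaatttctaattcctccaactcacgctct
Eif4a1 chr11:69672560-69672659, minus strand: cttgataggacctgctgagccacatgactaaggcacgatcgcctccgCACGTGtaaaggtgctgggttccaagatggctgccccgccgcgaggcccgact
Eif5a chr11:69921408-69921507, minus strand: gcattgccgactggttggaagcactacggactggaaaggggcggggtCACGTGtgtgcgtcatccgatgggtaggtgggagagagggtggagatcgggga
The motif starts at position -68 from the start of Eif3f, -189 from that of Eif4a1 and, for Eif5a, -74 or -185 from 2 alternative starts. In Eif4e and Eif4g1 the surroundings overlap an annotated untranslated region, and only the site itself with 10 bases on each side is given. Another Eif5a site, at -178 from a start and also within an untranslated region, is not printed. Nor are matches at position -228 of Eif4e and 15 of Eif4g1, whose windows left the upstream part.
Eif4e chr3:138527194-138527219, plus strand: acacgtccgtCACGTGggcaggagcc
Eif4g1 chr16:20672663-20672688, plus strand: cagtgggtgtCACGTGatggggcgga
The sixth such gene is Eif3a, whose match lies after its start.

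In all, 9 motifs were searched on both strands, none of which contains another. CGCANGCG, the core of the NRF1 motif, was found in 12 of 41 members (29.3%) and 21.1% of listed genes, and 9 of these 12 members had risen. The YY1 motif AAGATGGC was found in 4 of 41 (9.8%) and 6.0%, all 4 among the genes that rose. It also stands in the Eif4a1 window above, downstream of the capitals. The ETS motif CCGGAAG had 15 of 41 (36.6%) against 23.3%, with 5 among the genes that rose. For CCAAT the counts were 14 of 41 (34.1%) against 43.9%, and for the GC box GGGCGG 31 of 41 (75.6%) against 67.8%. TGATGNAA, the composite site of stress response factors, had 1 of 41 against 2.9%, while TGACGTCA and CTCGCGAG had 0 of 41 against 3.7% and 2.5%. A match describes letters in these windows and shows no binding.

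Ratios between 2 genes within a library do not depend on the scaling of that library. Such ratios were formed for 7 pairs. The pairs were chosen after the values had been seen, mostly with a gene that rose over one that rose less, so the ratios are a description without a test. The mean log2 ratio of Eif2s2 to Eif2s1 went from -2.09 in TrB_WT to -1.61 in eMZB_WT and from -2.26 in TrB_KO to -1.45 in eMZB_KO, and the libraries did not overlap in either genotype. For Eif4ebp1 over Eif4ebp2 the means were 0.17 and 1.12 in wild type, without overlap, and 0.20 and 1.22 in knockout cells, where the libraries overlapped. The helicase pair Eif4a1 over Eif4a2 had means of 0.63 and 0.96 in wild type, without overlap, and of 0.73 and 1.15 in knockout cells, with overlap. Eif4g1 over Eif4g2 went from -1.39 to -1.13 in wild type, where TrB_WT replicate 2 reached into the eMZB range, and from -1.36 to -0.97 in knockout cells without overlap. Eif4ebp1 over its target Eif4e, at 0.08 and 0.73 in wild type and -0.00293 and 0.78 in knockout cells, overlapped in both. Eif1 over Eif1b had means of 2.54 and 3.07 in wild type (2.40 to 2.83 against 2.92 to 3.25) and of 2.62 and 2.68 in knockout cells, where the libraries overlapped. Eif4e over Eif4e2 stood at 0.82 and 1.22 in wild type without overlap and 1.05 and 1.12 in knockout cells with overlap. Whether these shifts differ between the genotypes was not tested.

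**Figure D3:**
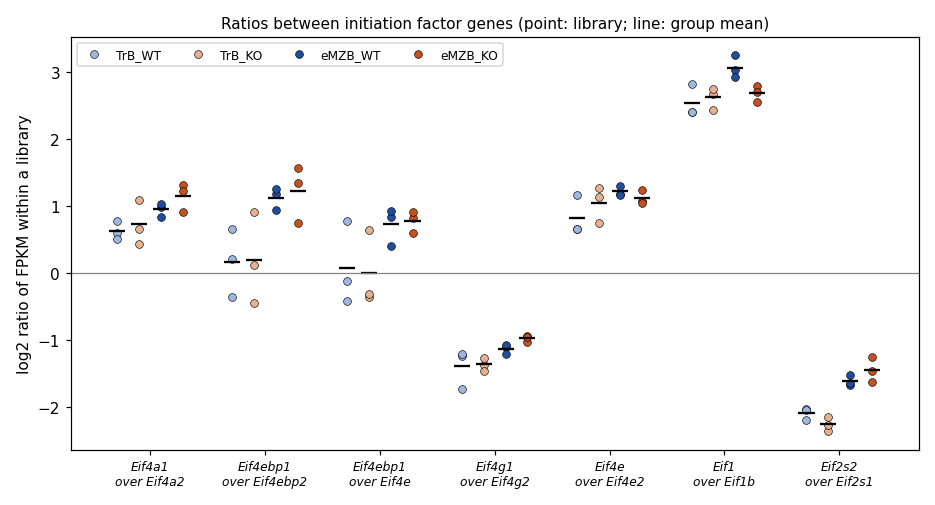
Log2 ratio of FPKM between 2 genes of each of 7 pairs (x axis) within each library (points), with the mean of each group as a line. The eMZB libraries (dark points) lie above the TrB libraries (pale points) without overlap for Eif2s2 over Eif2s1, and with overlap for the other 6 pairs.

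The wider translation machinery was followed through 4 gene lists. Among all genes 14.6% were called higher and 12.7% lower in wild type, and 14.2% and 13.2% in knockout cells. Of 11 listed genes of elongation and termination, 8 rose and 1 fell in wild type and 9 rose in knockout cells, with medians of 0.53 and 0.65. Not all 11 encode such factors, since the list also holds Eef2k, Eef1e1 and Eef1akmt1. Of these, Eef1akmt1 counts among the knockout rises (limma adjusted p = 0.0116) and was not called in wild type (adjusted p = 0.136). The elongation factor gene Eef1g measured 29.4, 30.1 and 37.0 in TrB_WT and 62.2, 62.5 and 60.3 in eMZB_WT. The groups were far apart, with a log2 change of 0.93 (SE 0.09, adjusted p = 9.89e-06) by limma. Etf1, the release factor (log2 0.87), and the elongation factor genes Eef1b2 (0.78) and Eef1a1 (0.66) rose as well. The gene that fell was Eef2k, the kinase that inhibits elongation factor 2, with a log2 change of -0.38 (SE 0.12, adjusted p = 0.0366), named after its value was seen.

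Of 8 listed genes of the integrated stress response, the program set off by eIF2 phosphorylation, 6 rose in wild type and 5 in knockout cells, and none fell. Atf4, its central transcription factor, measured 19.96, 20.3 and 24.5 in TrB_WT and 35.2, 30.5 and 35.0 in eMZB_WT, all eMZB libraries above all TrB libraries (log2 0.62 (SE 0.10, adjusted p = 0.000708)). Its known targets Trib3, Asns and Chac1 rose from 0.176 ± 0.107, 1.03 ± 0.361 and 0.372 ± 0.360 in TrB_WT to 4.42 ± 0.878, 10.6 ± 2.23 and 3.43 ± 0.791 in eMZB_WT. The messenger RNA of none of the 4 eIF2 kinases was called higher in the same comparisons. Among all genes 14.6% were called higher in wild type and 14.2% in knockout cells. For 4 genes such a count lies near those shares. Kinase activity and eIF2 phosphorylation were not measured here, and the part of the kinases in these rises was not tested.

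Of 19 listed genes of the mTORC1 pathway, which relieves 4E-BP1, 7 rose and 2 fell in wild type, and 6 rose and 3 fell in knockout cells. The falls of this list lay near the shares of all genes called lower, 12.7% in wild type and 13.2% in knockout cells. The largest rises were those of inhibitors of the pathway, Sesn2 (from 0.695 ± 0.122 to 6.61 ± 0.988 in wild type) and Ddit4 (from 0.979 ± 0.166 to 3.78 ± 0.572). Rps6, a ribosomal protein, rose by 0.72, and Rps6kb2, a kinase of that protein, had a log2 change of -0.53 (SE 0.10, adjusted p = 0.00256). Of 20 other regulators of initiation, 4 rose in wild type, namely Impact, an inhibitor of GCN2 (log2 1.13), Cyfip1, which binds eIF4E (0.77), and the poly(A)-binding protein genes Pabpc1 (0.30) and Pabpc4 (0.45). In knockout cells 4 of this list rose and 1 fell. The rises of these 20 regulators lay near the shares of all genes called higher, 14.6% in wild type and 14.2% in knockout cells.

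**Figure D4:**
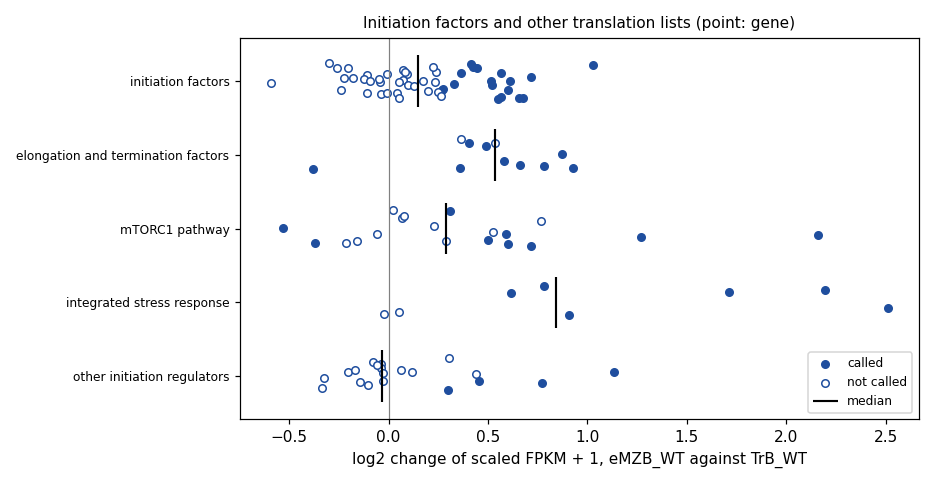
Log2 change from TrB_WT to eMZB_WT (x axis) of each gene (points) in the initiation factor set and 4 further translation lists (y axis), filled where called, with the list median as a bar. The medians are 0.15 for initiation factors, 0.53 for elongation and termination, 0.29 for mTORC1, 0.84 for the integrated stress response and -0.03 for other regulators.

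Loss of LSD1 was compared with wild type within each cell type, and no initiation factor gene was called in either. This held for TrB_KO against TrB_WT, where 0.498% of all genes were called (0.386% higher and 0.112% lower), and for eMZB_KO against eMZB_WT, where 0.406% were (0.335% higher and 0.0711% lower). At an unadjusted p under 0.05, limma gave 0 and 1 of the 50 genes, and voom in limma on the recovered reads also called 0 in both. The median log2 change of the members was 0.05 in TrB and 0.08 in eMZB cells, with single values of -0.30 to 0.36 and -0.16 to 0.28. The 95% intervals had a median half-width of 0.24 on the log2 scale. Across the genes they reached from -0.61 to 0.94 in TrB cells and from -0.59 to 0.71 in eMZB cells. The libraries of wild type and knockout did not overlap for 3 genes in TrB cells, 2 of them higher and 1 lower in the knockout, against 6.14% and 4.37% of all genes. In eMZB cells this was so for 8 higher and 2 lower genes, against 9.13% and 9.29%.

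**Figure D5:**
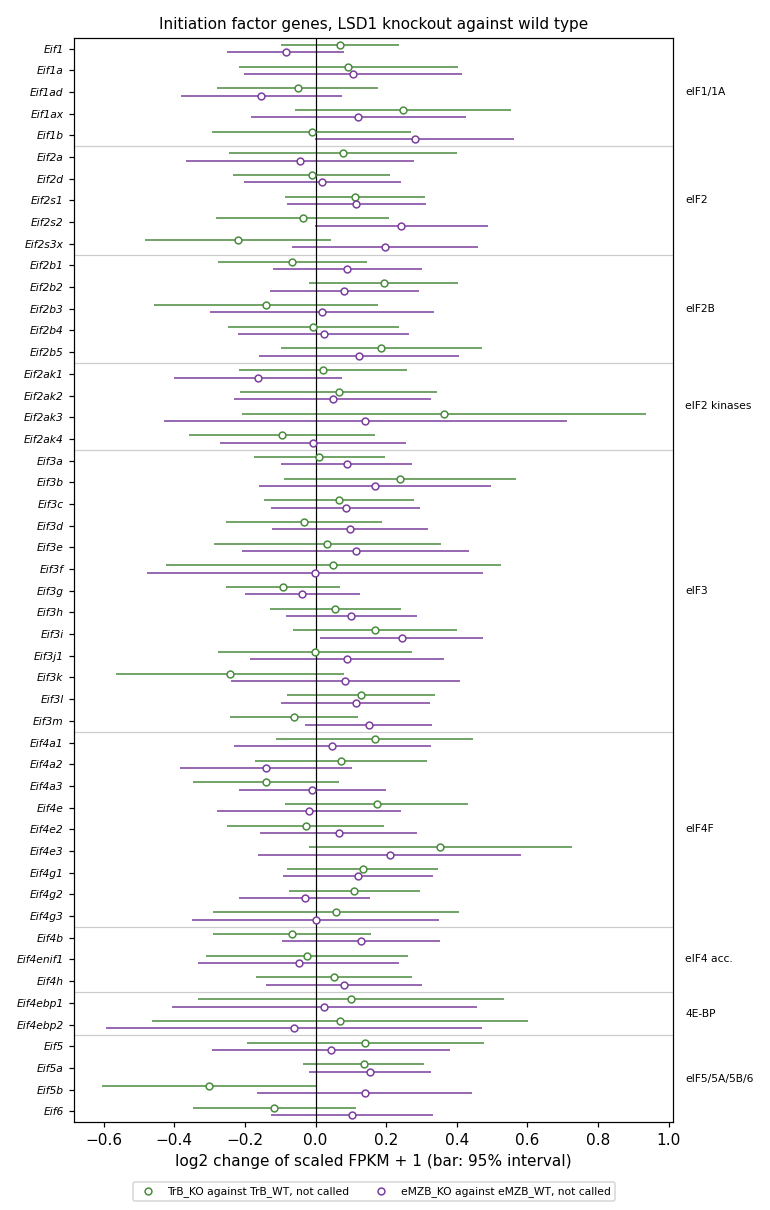
Log2 change of scaled FPKM + 1 in knockout against wild-type cells (x axis) for each of the 50 genes (y axis, grouped by role), with 95% intervals; green is TrB and purple is eMZB. All points are open because none was called, and values run from -0.30 (Eif5b) to 0.36 (Eif2ak3) in TrB cells.

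The genes with the smallest p are given by library. In TrB cells these were Eif5b, Eif4e3 and Eif2b2. Eif5b measured 3.79, 3.44 and 3.58 in TrB_WT and 3.23, 3.25 and 1.89 in TrB_KO. All knockout libraries lay below wild type, mostly through TrB_KO replicate 3, the library that stands apart (log2 -0.30, SE 0.14, limma adjusted p = 0.51, 95% interval -0.61 to 0.00). Rev1 on the opposite strand covers 16.8% of its exon bases. Eif4e3 measured 2.71, 2.78 and 1.71 in TrB_WT and 2.73, 3.94 and 3.29 in TrB_KO, which overlap, with a log2 difference of 0.35 (95% interval -0.02 to 0.72). For Eif2b2, at 10.9, 10.7 and 8.82 in TrB_WT and 11.3, 12.8 and 10.96 in TrB_KO, the groups were just apart and the difference was 0.19 (95% interval -0.02 to 0.40).

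In eMZB cells the smallest p belonged to Eif3i, Eif1b and Eif2s2. Eif3i measured 9.48, 9.89 and 9.70 in eMZB_WT and 12.5, 10.6 and 12.01 in eMZB_KO, all knockout libraries above wild type (log2 0.24, SE 0.11, limma adjusted p = 0.89, 95% interval 0.01 to 0.48). Eif1b, at 16.03, 13.1 and 15.8 in eMZB_WT and 17.6, 20.1 and 17.3 in eMZB_KO, and Eif2s2, whose values are given with the subunits of eIF2, also had groups that did not overlap. Their log2 differences were 0.28 (95% interval -0.00 to 0.56) and 0.24 (95% interval -0.00 to 0.49). Markers of other cell types also differed with LSD1 loss. Of 8 macrophage and monocyte markers 4 were listed, and their sum was 51.1 to 64.6 scaled FPKM in TrB_KO against 12.4 to 14.2 in TrB_WT, and 50.6 to 58.4 in eMZB_KO against 13.0 to 23.0 in eMZB_WT. Ly6c2, which rose in both cell types, made up most of the knockout sums, at 46.8 to 60.1 in TrB_KO and 45.1 to 54.2 in eMZB_KO. The other 3 (Cd68, Adgre1 and Itgam) summed to 4.31 to 5.12 in TrB_KO against 5.05 to 6.55 in TrB_WT, and to 4.25 to 5.45 in eMZB_KO against 2.48 to 3.36 in eMZB_WT. Csf1r, Lyz2, Cd14 and Fcgr1 have no row. Flt3, the 1 listed gene of 6 dendritic cell markers, rose in eMZB cells, from 0.675 to 1.06 in wild type to 4.52 to 5.67 in the knockout (limma adjusted p = 4.1e-05). Of the T cell markers Lck and of the erythroid markers Hbb-bs were listed, and of the neutrophil, NK cell and stromal markers none. The part of these in the initiation factor values was not tested.

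Whether the response to LSD1 loss differed between the cell types was tested as an interaction, the eMZB response minus the TrB response. No initiation factor gene was called, against 0.0102% of all genes, and 2 had an unadjusted limma p under 0.05. These were Eif2s3x (log2 0.42, SE 0.17, adjusted p = 0.686) and Eif5b (0.44, SE 0.20, adjusted p = 0.716). Both had a lower mean in knockout than in wild-type TrB cells and a higher mean in knockout than in wild-type eMZB cells. Eif3m came next, at 27.6, 28.7 and 29.2 in TrB_WT, 27.8, 28.7 and 25.5 in TrB_KO, 30.9, 34.1 and 35.4 in eMZB_WT, and 38.7, 34.1 and 39.0 in eMZB_KO, with an interaction of 0.21 (adjusted p = 0.797). With both wild-type libraries of low Kdm1a left out, 0 members were called in all 3 tests of LSD1 loss, and 3 had an unadjusted p under 0.05 in each.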

How the data were processed

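Per the labels' protocols, RNA of 2000 cells per library was converted with SMART-Seq v4 and Nextera XT, a route without strand or molecular identifiers. The authors deposited FPKM in 1 table of 9842 genes with Entrez IDs, of which all but 9 matched a symbol. The submitters' processing notes name the aligner STAR and the build mm10; the counting program and annotation were not given in the sources used here. Positions in the text are those of RefSeq for GRCm38.p6, and exon overlaps come from the GENCODE annotation.

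FPKM were divided by median-of-ratios factors, and log2(value + 1) was fitted with limma 3.58.1 (R 4.3.3; eBayes with trend) as 4 group means over all 12 libraries, with 8 residual degrees of freedom and a Benjamini-Hochberg adjusted p threshold of 0.05. On simulated data for eMZB_WT against TrB_WT (9842 genes), 86% of 200 genes changed by a log2 of 1 were recovered. Among the members only Eif4ebp1 (1.03) reached that size in wild type, so the recovery of smaller changes is not known from it. Whole reads were recovered for all 9842 genes, each value within 0.02 reads, for depth and for voom; members had 31 to 12118 reads per library. Python 3.11.15, numpy 2.4.6, pandas 2.3.3 and matplotlib 3.10.9 served for the rest.

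The labels number replicates 1 to 3 and do not tell what a number stands for. Deviations from group means correlated over 0.1 for every same-numbered pair of TrB_KO and eMZB_KO (0.161, 0.106 and 0.292), so only these groups were regarded as paired, from the data alone. The main fits used no pairing, and the replicate block entered only as an alternative. Single pairs of other groups reached similar values, 0.273 for replicate 3 of TrB_WT and eMZB_WT and 0.219 for that of eMZB_WT and eMZB_KO. Differently numbered libraries were not compared, so this pairing is uncertain.

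Values by library follow a rule: the 6 largest called rises in wild type whose groups do not overlap (no member fell), the 3 smallest p of each LSD1 test, the 3 highest means, the eIF2 kinases, the 4E-binding proteins and the paralog pairs of eIF4A, eIF2 gamma and eIF5A. For each pathway list up to 4 genes with the smallest p in wild type are named. The members, lists and tests were chosen with earlier results of these data known. Alternatives were other scalings, a pseudocount of 0.1, a minimum mean of 5, the replicate block, fits of fewer groups, no trend, voom, and each library left out. Leaving out both libraries of low Kdm1a and fitting the knockout groups alone with the block were added after seeing the data, and the promoter motifs and gene ratios were also chosen then.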

Additional observations from a re-analysis of the deposited data

How the results depend on the processing

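On FPKM as deposited, where the median of all genes shifted by 0.67 in the wild-type and 0.23 in the knockout cell type comparison, 15 members were called in wild type and 1, Eif2s2, in knockout cells. On that scale all 50 members had a positive log2 change in wild type, against 34 with scaling, and 44 against 35 in knockout cells. With LSD1 loss 50 against 30 were positive in TrB and 46 against 36 in eMZB cells. The interaction was positive for 1 against 27. Among genes followed through each setting, the sign was opposite for Eif2ak3 (0.17), Eif2ak2 (0.46), Eif2ak4 (0.35) and Eif1ad (0.58) in wild type. So it was for Eif2ak1 in knockout cells (0.13), Eif5b with LSD1 loss in TrB cells (0.17), and the interactions of Eif2s3x (-0.0756) and Eif3m (-0.33). Eif2ak1 in wild type, near 0, was negative with upper quartile scaling (-0.0123) and ran from -0.0173 to 0.16 over the fits that left out a library. Leaving out single libraries gave 13 to 23 members called in wild type, 14 to 27 in knockout cells and 0 in each test of LSD1 loss. With the replicate block 19 members were called in wild type and 23 in knockout cells, where it also gave 20 when the 6 knockout libraries were fitted alone. It changed no call of a member in the LSD1 tests. Sum scaling, upper quartile scaling, the pseudocount, the filter, fits of the groups compared, no trend, voom, and leaving out both libraries of low Kdm1a gave 16 to 18 members in wild type and 20 to 26 in knockout cells. The interaction has no fit of the groups compared alone. With 3 libraries per group, precision is limited: the median 95% half-width was 0.24 on the log2 scale.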

Other observations

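Genes around the initiation factors moved with cell type and, in 1 case, with LSD1. Myc, a transcription factor known to act on ribosome and translation genes, measured 5.38, 6.31 and 5.47 scaled FPKM in TrB_WT and 8.97, 8.09 and 9.09 in TrB_KO. All knockout libraries were above wild type, and Myc rose by 0.53 on the log2 scale (SE 0.10, limma adjusted p = 0.039). In eMZB cells it measured 15.7, 16.1 and 17.8 in wild type and 23.3, 21.5 and 26.4 in the knockout, again without overlap, with a log2 change of 0.49 that missed the threshold (adjusted p = 0.0617). No initiation factor gene was called in these same comparisons, where 0.498% (TrB) and 0.406% (eMZB) of all genes were. For 50 genes such a count lies near those shares, and any part of Myc in their levels was not tested. Odc1, the first enzyme of polyamine synthesis, which supplies the hypusine of eIF5A, rose from 6.29 ± 2.15 in TrB_WT to 15.3 ± 2.93 in eMZB_WT (limma log2 1.19, adjusted p = 0.000978). The hypusine enzyme genes Dhps and Dohh, from the list of other regulators, were not called. Their wild-type log2 changes were -0.04 and -0.08 (limma adjusted p = 0.777 and 0.566), and hypusine itself was not measured.

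TrB_WT replicate 3, a library labelled wild type with low Kdm1a, was the highest of the 3 TrB_WT libraries for 24 of the 50 initiation factor genes and the lowest for 16, while replicate 1 was lowest for 17 and highest for 9 and replicate 2 was lowest for 17 and highest for 17. Examples, picked after their values were seen, are Eif2ak3 at 5.56 beside 12.6 and 14.6, Eif4ebp2 at 4.66 beside 10.1 and 10.7, Eif1a at 8.09 beside 5.40 and 5.06, and Eif4g2 at 51.3 beside 41.9 and 42.1 scaled FPKM. The order of the libraries was not counted over all genes, so whether it is particular to the initiation factors is not known.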
